A study of Homo sapiens with 10 samples.

Results

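Rb occupancy was described at the promoters of 9 genes that make or prepare the building blocks of DNA. They are RRM1, RRM2 and RRM2B, which encode ribonucleotide reductase subunits, TYMS, TK1, DTYMK and DUT of the thymidylate route, DHFR2 of folate metabolism, and CAD, the enzyme that opens pyrimidine synthesis. The 9 genes were taken by name from 19962 protein-coding genes, with earlier results of these data known. Every peak of the 8 Rb lists that overlapped 2000 bp upstream to 500 bp downstream of any annotated transcript start of a gene was assigned to it. This gave 9 to 11 peaks per library, out of 5221 to 17281 peaks listed.

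OVCAR-3 and Kuramochi are established human lines of high-grade serous ovarian cancer, and all cells carried the wild-type label. Each line was profiled by Rb CUT&RUN, in which an antibody directs a nuclease to Rb on chromatin and the released fragments are sequenced, after 2 days in DMSO or in 300 nM INX-315, an inhibitor of CDK2. Each of the 4 groups had 2 Rb libraries, made in parallel in 1 experiment, and each line had 1 IgG2a library from DMSO-treated cells. Each library was made from a bulk culture of 1 cell line, so more cells with Rb at a site and more Rb per cell cannot be told apart. Depth differed between libraries, with genome-wide means of 0.216 to 0.501 fragments per base, and was lower under INX-315 than under DMSO on average in both lines. Peak heights are therefore given as multiples of that mean, hereafter the height.

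Cells divide only if deoxyribonucleotides are made in step with DNA synthesis. Ribonucleotide reductase removes the 2′ hydroxyl of ribonucleotides, thymidylate synthase methylates dUMP to dTMP with a folate cofactor, dUTPase destroys dUTP so that uracil is not built into DNA, and thymidine kinase and thymidylate kinase phosphorylate thymidine and dTMP. Many of these genes are known E2F targets that peak around S phase, and unphosphorylated Rb binds E2F at such promoters until cyclin-dependent kinases phosphorylate it, whereas RRM2B is best known as a p53 target that supplies nucleotides outside S phase.

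The promoter letters on which these descriptions turn are shown first. Several motif families were searched on both strands, and 3 are described here. They are the 8-letter E2F motifs TTTCCCGC, TTTCGCGC, TTTGCCGC and TTTGGCGC, their 7-letter cores, which lack the first T and so are also found inside every 8-letter match, and the CCAAT box. In the 250 bases before each of 35116 RefSeq starts (GRCh38.p14) an 8-letter E2F motif was found in 2.79% of entries, a core in 10.9% and a CCAAT box in 32% of them. RefSeq promoter entries were matched for 8 of the 9 genes, all but RRM2B, and 2 of these genes, TYMS and DUT, had an 8-letter E2F motif in at least 1 entry. This count is by gene and the shares above are by entry, and DUT also had entries without the motif.

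The following stretches lie before the start named for each gene, are read 5′ to 3′ on the coding strand and show E2F motifs, E2F cores and CCAAT boxes in capitals. They are the last 150 bases before the TYMS start (chr18:657503-657652, plus strand), 30 bases before the downstream start of DUT (chr15:48332151-48332180, plus strand), the last 30 bases before the TK1 start (chr17:78187053-78187082, minus strand), the last 120 bases before the RRM2 start (chr2:10122619-10122738, plus strand), the last 30 bases before the DTYMK start (chr2:241686816-241686845, minus strand) and the last 60 bases before the DHFR2 start (chr3:94062917-94062976, minus strand).
TYMS: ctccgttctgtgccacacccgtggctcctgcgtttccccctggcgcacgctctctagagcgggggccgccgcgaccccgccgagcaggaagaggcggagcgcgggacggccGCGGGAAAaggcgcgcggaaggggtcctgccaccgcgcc
DUT: gctgGCGGGAAAtttcggtTTTGGCGCgct
TK1: tggtttaaagcggtcggcGCGGGAAccagg
RRM2: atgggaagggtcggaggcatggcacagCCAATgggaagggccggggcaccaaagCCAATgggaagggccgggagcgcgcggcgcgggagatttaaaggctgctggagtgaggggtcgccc
DTYMK: cgccggCCAATgggagctccggaaggctgc
DHFR2: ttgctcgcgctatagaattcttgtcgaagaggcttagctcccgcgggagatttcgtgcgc

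TYMS carried 1 E2F motif, at position -39 from its start. DUT carried 2, at -42 and -27 from a start that lies 768 bp downstream of its MANE Select start, the reference start chosen jointly by Ensembl and RefSeq. TK1 carried an E2F core at -12 and CCAAT boxes on the opposite strand at -77 and -46. RRM2 carried 3 CCAAT boxes, at -123, -93 and -66, and no E2F motif or core in the 250 bases before this start, and DTYMK carried 2 CCAAT boxes, at -92 and -24. The 250 bases of DHFR2 held none of the 3 motifs. A match is a description of letters and not of a bound site.

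RRM1 and CAD carried their 8-letter E2F motifs downstream of the start, in the first intron and outside every annotated exon. The stretches shown are on the plus strand (hg38), chr11:4095117-4095196 for RRM1 and chr2:27217700-27217779 for CAD, with E2F motifs and cores in capitals.
RRM1: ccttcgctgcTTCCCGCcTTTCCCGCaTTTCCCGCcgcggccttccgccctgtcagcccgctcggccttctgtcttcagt
CAD: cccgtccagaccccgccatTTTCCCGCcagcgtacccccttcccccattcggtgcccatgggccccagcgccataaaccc

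The RRM1 motifs began 336 and 345 bp after the MANE start and the CAD motif 350 bp after it. Within 200 bp windows centred on the median summit of each main region, 1 of the 9 genes, TYMS, held an 8-letter E2F motif, against 6.56% of the 3186 promoter regions called in all 8 Rb libraries. Within 400 bp windows RRM1, TYMS and CAD held one, against 15.6% of those regions. With 9 genes these counts were read as a description.

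Rb was listed at nearly all of the 9 promoters in cells kept in DMSO without inhibitor. A promoter was called bound when both replicates of a group had a peak there. Under DMSO 8 of the 9 were bound in OVCAR-3, against 26.8% of protein-coding genes, and the same 8 were bound in Kuramochi, against 24.9%. DHFR2 was the exception in each line. Under INX-315 all 9 were bound in each line, against 55.5% of protein-coding genes in OVCAR-3 and 53.2% in Kuramochi. With equal list lengths the OVCAR-3 count was 7 for untreated cells and 8 for treated ones. The Kuramochi count was then 8 for untreated cells and 7 for treated ones, so 9 was reached in neither line. At a q-value of at most 0.001 all 9 stayed bound with the inhibitor in each line. No gene of the 9 had a peak in either IgG2a list. Those lists held only 25 (OVCAR-3) and 12 (Kuramochi) peaks on the main chromosomes, and both came from DMSO-treated cells. With lists this short few genes of any kind could have a peak, so the absence does not test the specificity of these Rb peaks.

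Few of these promoters could be gained, since gained means bound under INX-315 with no peak in either DMSO library of the line. None of the 9 was gained in OVCAR-3, where 16.2% of protein-coding genes were, and 1 was gained in Kuramochi, DHFR2, where 14.0% were. None was lost in either line.

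Of the ribonucleotide reductase genes, RRM2 held the highest peaks. RRM2 encodes the small subunit that limits the enzyme's activity through the cell cycle, and its main region spanned chr2:10121735-10123621 around the MANE start. Its height was 97.0 and 136 in OVCAR-3 DMSO and 251 and 397 in OVCAR-3 INX-315. The Kuramochi heights were 69.6 and 108 with DMSO, and 230 and 236 with the inhibitor. RRM2 had the highest mean of the 9 genes in all 4 groups. By the p-value of the peak caller, its peaks ranked above 96.1% to 99.6% of the peaks of their own lists. Treated and untreated libraries did not overlap in either line.

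Heights were compared with limma on the log2 scale over the 3269 regions called in all 8 Rb libraries, with Benjamini-Hochberg adjustment over all of them. At the main RRM2 region the log2 change with INX-315 over both lines was 1.44 (SE 0.29, adjusted p = 8.02e-07, higher in 4 of 4 INX-315 libraries). Within the lines the change was 1.46 (OVCAR-3) and 1.43 (Kuramochi). This stood below the median change of all regions, 1.66, and 29.2% of regions changed less. The increase belonged to nearly every region, since 99.4% of the 3269 were called higher over both lines, 97.1% in OVCAR-3 and 92.2% in Kuramochi. A call of higher is therefore not particular to any of these genes.

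RRM2 had a second region, chr2:10120094-10120987, with summits at -2288 to -2078 bp, upstream of the MANE start, beside starts of longer RRM2 transcripts. Its height was 32.3 and 51.8 in OVCAR-3 DMSO, 137 and 178 in OVCAR-3 INX-315, 22.5 and 21.1 in Kuramochi DMSO, and 69.2 and 83.4 in Kuramochi INX-315. The upstream region was lower than the main one in all 8 libraries. Its log2 change over both lines was 1.87 (SE 0.31, limma adjusted p = 4.06e-09), more than that of 71.7% of regions. The difference between the 2 changes at RRM2 was not tested.

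RRM1 encodes the large subunit, which carries the active site. Its region, chr11:4094094-4095688, had heights of 46.5 and 61.8 in OVCAR-3 DMSO and 91.4 and 124 in OVCAR-3 INX-315. Untreated Kuramochi had 27.0 and 50.0, and treated Kuramochi 116 and 144. The 2 treatments did not overlap in either line, and the gap was wider in Kuramochi. The log2 change was 0.99 in OVCAR-3 (SE 0.43, adjusted p = 0.0241) and 1.81 in Kuramochi (SE 0.43, limma adjusted p = 0.000112). The difference between the lines, 0.83 (SE 0.61), did not pass the test (limma adjusted p = 0.997). In OVCAR-3 only 4.96% of regions changed less than RRM1, and the call there was lost on the fold enrichment as deposited (0.65, limma adjusted p = 0.189) and without OVCAR-3 DMSO replicate 1 (0.78, limma adjusted p = 0.178) or OVCAR-3 INX-315 replicate 2 (0.77, limma adjusted p = 0.142). After each library was centred on its median over all regions, the OVCAR-3 change turned to -0.84 and passed the test (limma adjusted p = 0.0217), which 8.53% of all regions did in either direction, and RRM1 was the 1 gene of the 8 fitted that did so in OVCAR-3.

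RRM2B encodes the p53-inducible small subunit. Its height was 18.2 and 31.9 in OVCAR-3 DMSO and 71.8 and 126 in OVCAR-3 INX-315. The DMSO libraries of Kuramochi gave 35.9 and 71.1 and its INX-315 libraries 178 and 218. It was higher in Kuramochi than in OVCAR-3 within each treatment, without overlap, but the log2 difference under DMSO, 1.07 (SE 0.43), did not pass the test (limma adjusted p = 0.112). The log2 change with INX-315 was nearly equal in the lines, 1.98 in OVCAR-3 and 1.96 in Kuramochi, and over both lines it was 1.97 (SE 0.31, limma adjusted p = 7.21e-10), more than that of 81.1% of regions. The 8 summits lay at -392 to -80 bp from the MANE start, on the upstream side, on which none of the 8 RRM1 summits lay.

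**Figure D1:**
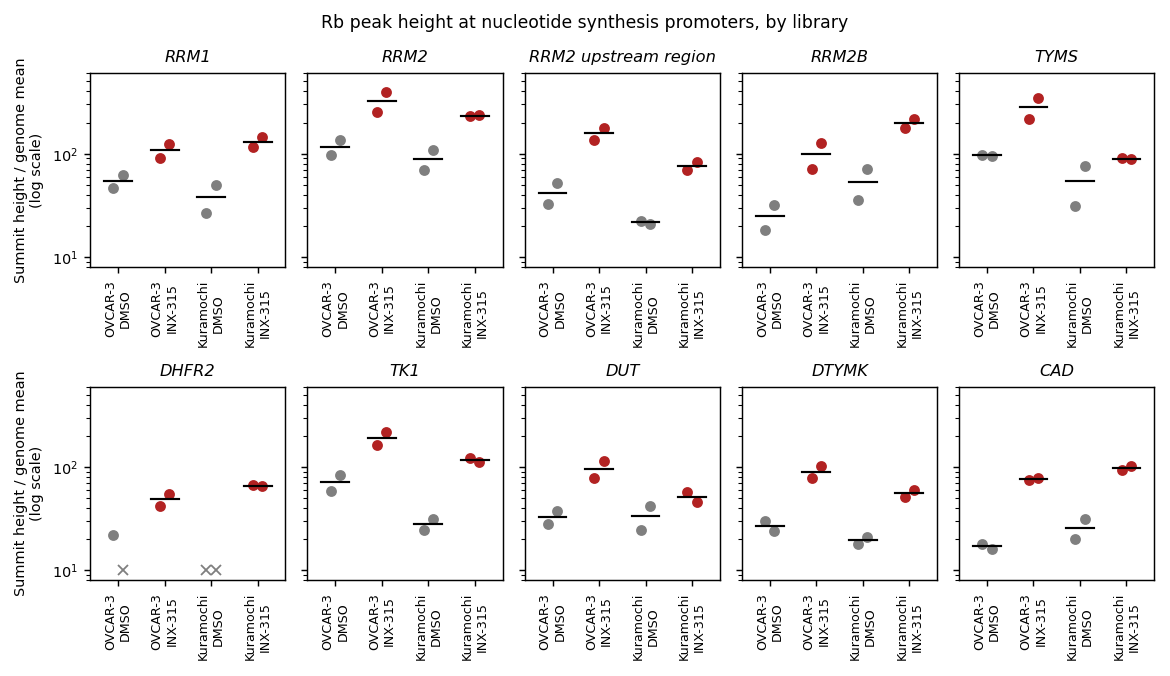
Summit height divided by the genome-wide mean of the library (log axis) for each Rb library at the 9 genes and the upstream RRM2 region, grey for DMSO and red for INX-315, with black bars for the means of 2 libraries and crosses at the foot for libraries without a listed peak. RRM2 reaches 397 in OVCAR-3 with INX-315, and DHFR2 has no peak in 3 of the 4 DMSO libraries.

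Of the thymidylate genes, TYMS had greater heights in OVCAR-3 than in Kuramochi both with DMSO and with INX-315. TYMS encodes thymidylate synthase, the target of fluoropyrimidine drugs, and its region was chr18:657032-658910. Its height was 97.0 and 95.7 in OVCAR-3 DMSO and 215 and 350 in OVCAR-3 INX-315. Kuramochi had 31.5 and 76.4 with DMSO, and 91.4 and 88.0 with the inhibitor. The Kuramochi INX-315 heights thus lay below both untreated OVCAR-3 heights. On the fold enrichment as deposited, which is divided by the local background, they lay above, at 27.0 and 15.8 against 13.5 and 13.7. The log2 change with INX-315 was 1.51 in OVCAR-3 (SE 0.43, limma adjusted p = 0.000552) and 0.87 in Kuramochi (SE 0.43, limma adjusted p = 0.0448). The Kuramochi call was lost without Kuramochi DMSO replicate 1 (0.23, limma adjusted p = 0.625), without either Kuramochi INX-315 library, without either OVCAR-3 DMSO library, on the fold enrichment as deposited (0.48, limma adjusted p = 0.352) and over the regions called in all 4 libraries of the line (0.87, limma adjusted p = 0.0566). Over both lines TYMS changed by 1.19 (SE 0.30, limma adjusted p = 9.04e-05), and 12.0% of regions changed less.

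TK1 encodes the cytosolic thymidine kinase of the salvage route, and its region was chr17:78186418-78187435. Its height was 58.6 and 83.7 in OVCAR-3 DMSO and 163 and 219 in OVCAR-3 INX-315. In untreated Kuramochi cells it was 24.7 and 31.6, and in treated ones 121 and 111. The untreated lines did not overlap, and the treated values of Kuramochi lay above the untreated values of OVCAR-3. TK1 changed by 1.43 (log2) in OVCAR-3, by 2.05 in Kuramochi and over both lines by 1.74 (SE 0.31, limma adjusted p = 2.97e-08), close to the median of all regions. The divergent gene AFMID starts 306 bp from the MANE start of TK1, so the peak cannot be assigned to 1 of these genes.

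DTYMK encodes thymidylate kinase, and its region, chr2:241686092-241687929, also covered the start of ING5, 270 bp away on the other strand. Its height was 30.3 and 23.9 in OVCAR-3 DMSO and 78.3 and 102 in OVCAR-3 INX-315. The Kuramochi heights were 18.0 and 21.1 without and 51.9 and 60.2 with INX-315. These were among the lowest untreated peaks of the 9 genes, with 8 to 15 fragments at the summit. The log2 change over both lines was 1.63 (SE 0.31, limma adjusted p = 1.81e-07), with 47.2% of regions below it.

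DUT encodes dUTPase, whose nuclear and mitochondrial forms come from alternative first exons, and its region was chr15:48330929-48332402. Its height was 28.3 and 37.9 in OVCAR-3 DMSO and 78.3 and 114 in OVCAR-3 INX-315. Kuramochi gave 24.7 and 42.1 without and 56.8 and 46.3 with the inhibitor. In this line the treatments were separated by a narrow margin, 42.1 against 46.3. DUT changed by 1.53 in OVCAR-3 (SE 0.43, limma adjusted p = 0.000563) and by 0.67 in Kuramochi (SE 0.43), which did not pass (limma adjusted p = 0.127). The Kuramochi change passed without Kuramochi DMSO replicate 2 (1.05, limma adjusted p = 0.0340). Over both lines the change was 1.10 (SE 0.31, limma adjusted p = 0.000360), and 8.23% of regions changed less.

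CAD carries the first 3 steps of pyrimidine synthesis on 1 protein, and its region, chr2:27217070-27218152, held 8 to 12 fragments at its summits under DMSO. Its height was 18.2 and 16.0 in OVCAR-3 DMSO and 75.0 and 78.5 in OVCAR-3 INX-315. For Kuramochi the DMSO libraries gave 20.2 and 31.6 and the INX-315 libraries 93.9 and 102. CAD was the lowest gene with a peak in both libraries of OVCAR-3 DMSO. There its peaks ranked, by the p-value of the peak caller and not by height, above 20.7% and 13.1% of their lists. Its log2 change over both lines, 2.06 (SE 0.31, limma adjusted p = 1.20e-10), was the largest of the 8 genes in the fit and exceeded that of 87.5% of regions. At a q-value of at most 0.001 its OVCAR-3 DMSO replicate 2 peak was not kept, so CAD left the fit. The largest change of the 7 genes then fitted was 1.97. Further along the gene, CAD had 2 more regions at other annotated starts, each in 1 INX-315 library, at heights of 9.51 and 13.9.

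DHFR2 encodes a mitochondrial enzyme. Its region, chr3:94062289-94063308, was listed in 5 of 8 libraries, at a height of 22.2 in OVCAR-3 DMSO replicate 1, 42.4 and 54.7 in OVCAR-3 INX-315, and 66.7 and 64.8 in Kuramochi INX-315. It was absent from the other 3 DMSO lists and so was not in the fit. The 5 summits held 11 to 27 fragments. Among 353 to 517 peaks of each of those 3 lists whose local background was within 20% of that at DHFR2, the lowest summit held 8 or 9 fragments, so a peak below about that size would not have been listed. NSUN3, a mitochondrial tRNA methyltransferase gene, starts 64 bp away on the other strand, and the peak cannot be assigned to 1 of these genes.

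In each line both INX-315 values exceeded both DMSO values for the 8 genes with a peak in all libraries. The same held for 99.0% of the 3269 regions in OVCAR-3 and 97.3% in Kuramochi. Over both lines all 8 genes were called higher, with a median log2 change of 1.53 and a range of 1.10 to 2.06. After each library was centred on its median over all regions, the changes ran from -0.59 to 0.37 and 2 of the 8 genes passed the test, against 17.0% of all regions in either direction. Those 2 were TYMS, at -0.50 (SE 0.16, limma adjusted p = 0.0245), and DUT, at -0.59 (SE 0.20, limma adjusted p = 0.0374). Relative to the general increase of Rb height, TYMS and DUT thus gained less over both lines, but neither passed the test within a line after centring. A count of 2 among 8 genes is near the share of all regions and was read as a description. CAD, at 0.37 (SE 0.21, limma adjusted p = 0.225), did not differ from the general increase by the test.

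**Figure D2:**
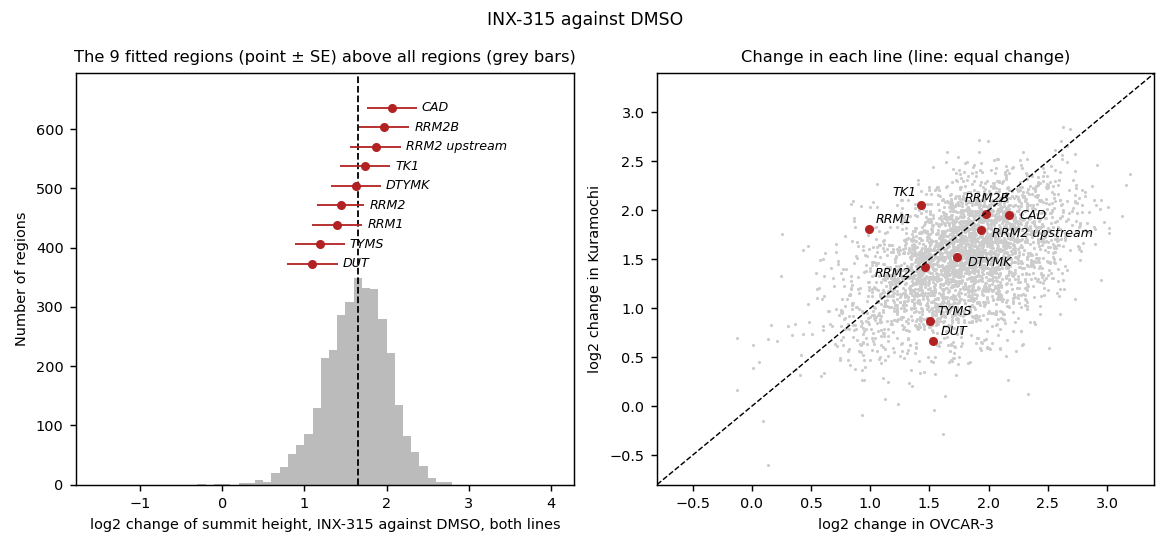
Left, log2 change of summit height with INX-315 over both lines for the 9 fitted regions of 8 genes (red points, bars 1 SE, stacked only for legibility) above the histogram of all 3269 regions, whose median of 1.66 is dashed. Right, the change in OVCAR-3 against the change in Kuramochi, with RRM1 above the line of equal change and TYMS and DUT below it, while no difference between the lines passed the test.

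The response did not differ between the lines by the test for any of these genes, and 0% of all 3269 regions passed it (95 regions had an unadjusted limma p below 0.05). The lines were then compared without reference to the response. Under DMSO 6.73% of all regions differed between Kuramochi and OVCAR-3 in either direction, and of the 8 genes TK1 did, with a log2 difference of -1.33 (SE 0.43, limma adjusted p = 0.0378, lower in Kuramochi in 2 of 2 libraries). Under INX-315, a comparison added after the values were seen, 6.76% of regions differed and TYMS was the 1 gene that did, with a log2 difference of -1.61 (SE 0.43, limma adjusted p = 0.00761). For TK1 the difference under INX-315 was -0.70 (limma adjusted p = 0.344). The TK1 call under DMSO was lost without either OVCAR-3 DMSO library, without Kuramochi DMSO replicate 1 and without either Kuramochi INX-315 library, with values from -1.58 to -1.07 when 1 library was left out. After median centring 5 of the 8 genes differed under DMSO, against 27.6% of all regions, RRM1, RRM2, TYMS and TK1 lower and RRM2B higher in Kuramochi. Under INX-315 4 differed, against 31.6% of all regions, TYMS, TK1 and DUT lower and RRM2B higher. The TYMS call under INX-315 was lost without OVCAR-3 INX-315 replicate 2 (-1.26, limma adjusted p = 0.119), Kuramochi INX-315 replicate 1 (-1.64, limma adjusted p = 0.199) or Kuramochi INX-315 replicate 2 (-1.59, limma adjusted p = 0.242).

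The local background of the control differed between the lines at some of these genes. This background, which the peak caller takes from the control library around a peak, was 5.24 times the genome-wide mean at TYMS in OVCAR-3 DMSO and 1.05 times in Kuramochi DMSO. At RRM2B it was 1.00 times in OVCAR-3 and 3.17 times in Kuramochi, at the main RRM2 region 2.25 and 1.13 times, and at TK1 2.01 and 1.78 times. On the fold enrichment as deposited, which is divided by this background, the Kuramochi minus OVCAR-3 difference under DMSO was 0.13 at TYMS, where the height gave -0.98, and 0.12 at RRM2B, where the height gave 1.07. At TK1 it was -1.32 (limma adjusted p = 0.293), and at TYMS under INX-315 it was -0.91 (limma adjusted p = 0.392). Its part in the line differences was not tested.

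RRM2 came first in the order of the genes in all 4 groups. In OVCAR-3 DMSO the mean heights fell from RRM2 (116 ± 27.3, SD, n = 2) through TYMS (96.4 ± 0.92), TK1 (71.2 ± 17.8), RRM1 (54.1 ± 10.8), DUT (33.1 ± 6.78), DTYMK (27.1 ± 4.52) and RRM2B (25.1 ± 9.70) to CAD (17.1 ± 1.58). Only TYMS over TK1 and RRM1 over DUT were neighbours whose library values did not overlap. In Kuramochi DMSO it ran from RRM2 (88.8 ± 27.1, SD, n = 2) to DTYMK (19.5 ± 2.19), and every pair of neighbours overlapped. Under INX-315 its height was 324 ± 103 in OVCAR-3 and 233 ± 4.62 in Kuramochi (SD, n = 2). DHFR2 was last in OVCAR-3 (48.5 ± 8.68) and DUT in Kuramochi (51.6 ± 7.42). RRM2B moved up in rank between the treated lines, from position 5 in OVCAR-3 (98.9 ± 38.4, SD, n = 2) to position 2 in Kuramochi (198 ± 28.2, SD, n = 2).

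Peaks at these promoters lay close to the starts, and most were wider under INX-315 than under DMSO. Summits of CAD lay 177 to 327 bp and those of RRM1 133 to 320 bp downstream of the MANE start, and those of TK1 13 to 173 bp downstream. TYMS summits lay between -85 and 95 bp in OVCAR-3, whereas in Kuramochi they were at -16 bp in replicate 1 of each treatment and at 625 and 612 bp, in an intron, in replicate 2. DUT summits lay between -150 and 512 bp in OVCAR-3 and between 399 and 530 bp in Kuramochi. The Kuramochi summits of DUT were thus in the intron between the MANE start and the downstream start whose sequence is shown above.

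The peaks at CAD were 220 and 410 bp wide in OVCAR-3 DMSO and 1017 and 1002 bp wide in OVCAR-3 INX-315, and in Kuramochi 354 and 672 bp against 951 and 778 bp. At RRM2 it was already 1391 bp in OVCAR-3 DMSO and 1572 bp in Kuramochi DMSO and was 1531 and 1547 bp under INX-315. The median width over all 3269 regions went from 732 to 1280 bp in OVCAR-3 and from 735 to 1148 bp in Kuramochi. At TYMS the mean width was 1571 and 1717 bp in OVCAR-3 and 1440 and 1638 bp in Kuramochi. RRM2 and TYMS thus differed little in width between the treatments, as did DUT in OVCAR-3, with means of 1324 and 1471 bp. Width was not tested.

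**Figure D3:**
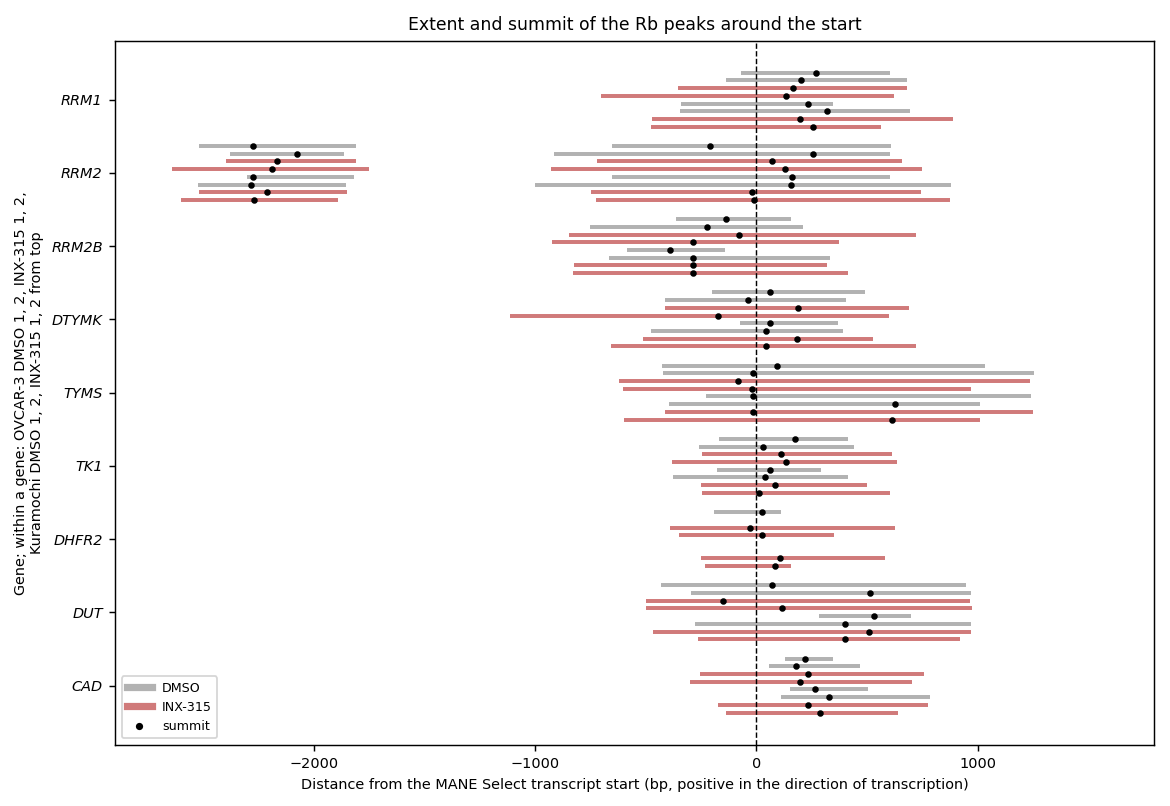
Extent (bars, grey for DMSO and red for INX-315) and summit (black points) of each Rb peak at the 9 genes by distance from the MANE Select start in bp, 1 row per library. RRM2 shows its upstream region with summits from -2288 to -2078 bp, RRM2B summits lie on the upstream side, and 2 Kuramochi summits of TYMS lie more than 600 bp downstream.

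The wider set of nucleotide genes was less fully occupied. It held 43 other genes of purine and pyrimidine synthesis, folate and one-carbon metabolism, salvage and pool control. Under DMSO 21 of the 43 (48.8%) were bound in OVCAR-3, against 26.8% of protein-coding genes, and 17 (39.5%) in Kuramochi, against 24.9%. Under INX-315 37 were bound in each line, against 55.5% and 53.2%. In OVCAR-3 5 were gained (11.6%, against 16.2% of protein-coding genes), PFAS, ADSL, IMPDH2, DHODH and DCTD. In Kuramochi 11 were gained (25.6%, against 14.0%), ATIC, ADSS2, PRPS2, DHODH, CTPS2, CMPK2, SHMT1, DCTD, UPP1, ADA and GUK1. DHODH, which oxidises dihydroorotate in mitochondria, and DCTD, which deaminates dCMP, were gained in both lines, each with 4 peaks and heights under INX-315 of 16.3 to 32.4 for DHODH and 16.3 to 19.8 for DCTD. The faintest DMSO peaks listed in this set had heights of 10.1 (ADSS2 and PRPS2, OVCAR-3 replicate 1). Untreated signal too faint to be listed cannot be told from none, so a gain here does not show that Rb was absent before. CDA, cytidine deaminase, and NME1, a nucleoside diphosphate kinase, had no peak in any Rb library.

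Of the 43 genes 14 had a region in all 8 libraries, and all 14 were called higher over both lines, with a median log2 change of 1.77 and a range of 1.11 to 2.34. PPAT and PAICS, the divergent pair of purine synthesis genes, share 1 region but are counted as 2 genes here. By list, 4 of 13 purine synthesis genes (median 1.70) and 3 of 6 pyrimidine synthesis genes (2.15) were fitted and called higher. So were 4 of 11 salvage genes (1.64) and 2 of 7 pool control genes (1.78). Of the 6 genes listed under folate and one-carbon metabolism, among which DCTD was placed, 1 was (MTHFD1, 1.11).

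Pyrimidine synthesis genes made up 3 of the 4 largest changes of this set. The log2 change was 2.34 at CTPS1, a CTP synthase that proliferating lymphocytes need (SE 0.30, limma adjusted p = 3.75e-13), 2.15 at UMPS, which makes UMP, and 2.13 at CMPK1, which phosphorylates UMP and CMP. The other of the 4 was the deoxycytidine kinase gene DCK, at 2.15. The height at CTPS1 was 40.4 and 23.9 in OVCAR-3 DMSO, 144 and 233 in OVCAR-3 INX-315, 65.2 and 81.6 in Kuramochi DMSO, and 282 and 361 in Kuramochi INX-315. After median centring 3 of the 14 genes passed the test, against 17.0% of all regions. CTPS1 was higher, at a log2 change of 0.66 (limma adjusted p = 0.00609), as was DCK, at 0.46 (limma adjusted p = 0.0425), and MTHFD1, a gene of folate interconversion named after its value was seen, was lower, at -0.57 (limma adjusted p = 0.0032). The next by size before centring were GMPS, NT5C, GART, ADK, NUDT1 and UCK2, which ran from 1.97 to 1.61.

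**Figure D4:**
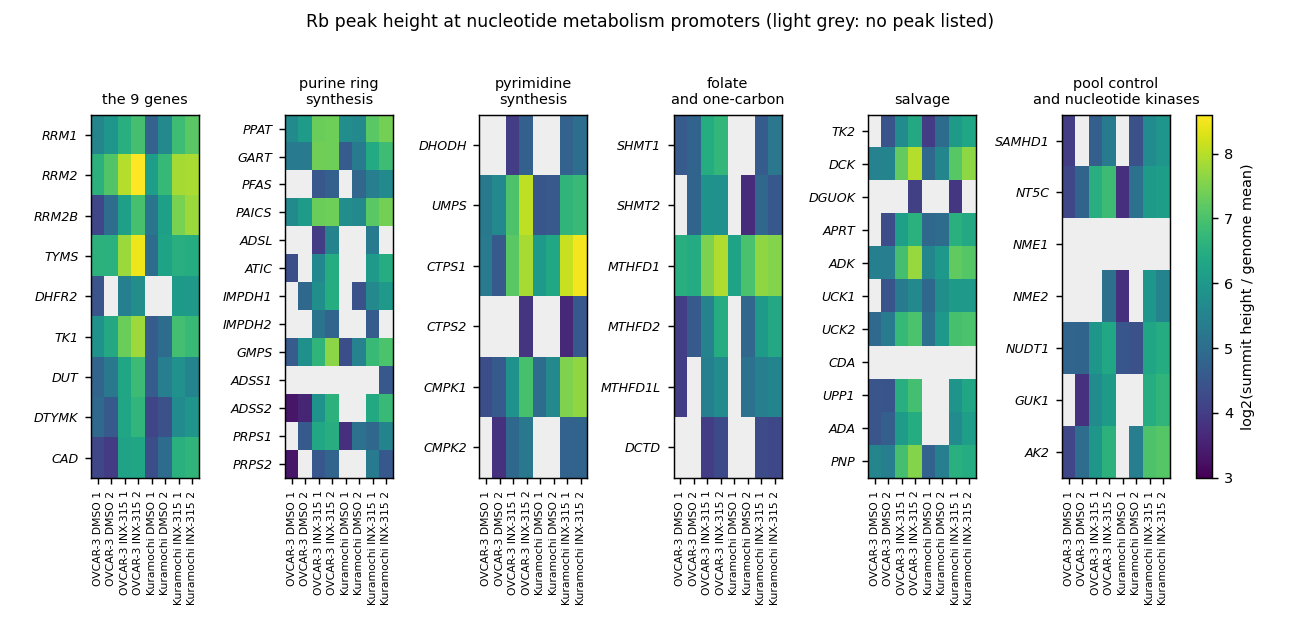
Colour gives log2 of summit height over the genome-wide mean in each of the 8 Rb libraries for the 9 genes and the 43 other nucleotide metabolism genes, with light grey where no peak was listed. The panel of the 9 genes is filled but for DHFR2 under DMSO, whereas the other panels have many empty DMSO cells and 2 genes, CDA and NME1, without any peak.

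Among 3743 other protein-coding genes with a promoter region in all 8 libraries, the profiles nearest to the mean profile of the 8 genes belonged to HES4, LRRC47 and WNK1, with Euclidean distances of 0.37, 0.42 and 0.43 over the 8 log2 heights. The 8 genes themselves lay farther from their own mean, from 0.76 for RRM1 to 3.52 for RRM2, so the mean profile describes none of them closely.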

How the data were processed

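Peak lists of Rb CUT&RUN in OVCAR-3 and Kuramochi cells were analysed (hg38). The authors aligned the reads with Bowtie2 (2.3.4.1), kept duplicates, and called peaks in each library with MACS2 (2.2.7.1) against IgG at a q-value of at most 0.05. The deposited lists hold a fold enrichment (a ratio) and −log10 p-values and −log10 q-values. From each ratio and p-value the whole number of fragments at the summit and the local background were recovered, within a relative tolerance of 3e-05, with 1 whole number for at least 98.6% of Rb peaks. The lowest background of a list is its genome-wide mean, and height is fragments divided by it. No spike-in scaling was used here.

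Overlapping Rb peaks (minimum 1 bp) formed 22760 regions, which were assigned to promoters (GENCODE 44). The 3269 regions called in all 8 libraries were fitted with limma (3.58.1, R 4.3.3), 2 libraries per group, no replicate block, trend, 4 residual degrees of freedom. The fit was also run on simulated data in which most regions did not change and no library was shifted as a whole. Nearly every region was called higher in the real data, so the simulation does not test the fit under such a general increase. Adjusted p below 0.05 was called. Replicates were biological replicates of 1 experiment, so p-values measure the spread between these libraries. Summits held 8 to 167 fragments at the main regions, and counting error is part of that spread. Genes, lists and motifs were chosen with earlier results of these data known, and 1 gene of the pathway lists is not reported here. Named pathway genes were those called over both lines (at most 10, by size), those gained in a line and those without any peak, and 3 genes were named for the nearest profile. Alternatives were the deposited fold enrichment, median centring, regions called in all 4 libraries of a line, a q-value of at most 0.001, a replicate block, limma without trend, leaving out each library, equal list lengths, other promoter definitions and a 400 bp window.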

Additional observations from a re-analysis of the deposited data

How the results depend on the processing

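Of the 598 values of single regions recomputed under an alternative, 528 kept their direction and side of the threshold, 32 lost and 19 gained a call, and 19 changed sign. Median centring, which removes the general increase, called 191 regions higher and 365 lower with INX-315 over both lines, 77 and 202 in OVCAR-3 and 61 and 128 in Kuramochi. It turned the changes of RRM1 to -0.29 over both lines and -0.84 in OVCAR-3, of RRM2 to -0.24, -0.37 in OVCAR-3 and -0.12 in Kuramochi, of TYMS to -0.50, -0.32 and -0.67, of DUT to -0.59, -0.30 and -0.87, of DTYMK to -0.06, -0.10 and -0.02, and of TK1 to -0.40 in OVCAR-3. The Kuramochi against OVCAR-3 difference under DMSO turned to 0.13 at TYMS and 0.42 at DUT on the deposited fold enrichment, and ran from -0.41 to 0.36 at DUT when 1 library was left out. The deposited fold enrichment called 1913 regions higher and 1 lower in Kuramochi with INX-315, and 3 higher and 0 lower between untreated lines, where median centring called 462 and 440. Leaving out 1 library gave 24 to 523 higher and 4 to 56 lower regions between untreated lines, and 0 to 1 lower in Kuramochi with INX-315. Gained genes of the 9 in OVCAR-3 numbered 0 to 1 without 1 library and 1 at a q-value of at most 0.001, and in Kuramochi 0 with equal list lengths. The E2F count was 3 in 400 bp windows.

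Correlations over regions of same-numbered deviations ran from -0.0449 to 0.0794 over 6 pairs of groups. They cannot show a shift of a whole library, so they do not settle whether replicate numbers pair the libraries. Leaving out replicate 1 moved the median change in OVCAR-3 from 1.784 to 1.673 (DMSO) or 2.066 (INX-315). In Kuramochi it moved from 1.525 to 1.23 (DMSO) or 1.639 (INX-315). Replicate 2 thus tended to be higher in each group. With the replicate block 714 regions were higher and 172 lower between untreated lines, against 179 and 41 without it. With the block 1 region was lower in Kuramochi with INX-315 and 1 was lower in the difference of the effects. The block also gave calls to RRM2B (1.07), TYMS (-0.98) and the upstream RRM2 region (-0.91) between untreated lines, to RRM2B (1.05), the upstream RRM2 region (-1.04) and DUT (-0.88) between treated lines, and to DUT in Kuramochi with INX-315 (0.67). Regions missing from a list have no value, so DHFR2 could not be fitted. With 8 to 15 fragments at the faintest summits, small differences were not detectable at this depth.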
